A study of Mus musculus with 9 samples.

Results

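Organoids labelled PN, which carry knockouts of Trp53 and Notch1, were compared with wild-type (WT) organoids over every gene that the authors listed as changed between them. That list holds 6544 of the 8742 genes in the series' tables, and it rests on 6 of the 9 libraries, 3 per group. All organoids were grown from mouse esophageal epithelial cells, received no treatment by their labels, and were harvested 7 days after seeding. The WT organoids carry no edit, and the remaining 3 libraries come from PCN organoids, in which Cdkn2a is knocked out as well. The labels do not say how the genes were knocked out, whether PN is 1 clone, or whether the replicates are separate cultures, so p-values measure the spread between these libraries only.

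The stratified epithelium of the esophagus renews from basal cells, which divide, leave the basal layer and mature into flat, keratin-rich cells that are shed. Notch1 is a receptor whose cut intracellular part joins the DNA-binding protein Rbpj to switch on genes such as Hes1, and in squamous epithelium this signal favours maturation. Trp53 encodes p53, a transcription factor that holds back division or starts cell death after damage. Mutations of both genes are common in esophageal squamous cell carcinoma.

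The authors' deposited table gave 3131 genes as higher and 3413 as lower in PN, together 38.1% of the 17165 genes over which they adjusted. Tested afresh with edgeR's quasi-likelihood test and Benjamini-Hochberg adjustment over those 17165 genes, 6248 of the 6295 genes with enough counts passed at an adjusted p of 0.05, or 99.3%. Of the tested genes, 48.0% were called higher and 51.2% lower, and the median log2 fold change was -0.26. Falls were larger than rises: 1323 genes (21.0%) fell by over 2-fold and 492 (7.82%) rose by over 2-fold. The WT and PN libraries did not overlap for 98.6% of the tested genes. Because the table holds only genes already called on these libraries, passing again is not independent evidence, and every family count below covers listed members only; an unlisted gene may be unchanged or too low to test. Members named within a family mostly reach 5 CPM, and a scarcer member can have changed more.

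Levels are given as CPM, counts scaled to the library total that the authors' normalization implies. Those totals were 14695420 to 15093994 in WT and 16857744 to 18912526 in PN, and the listed genes made up 72.6% to 74.1% of them in WT and 56.9% to 57.8% in PN. WT replicate 3 stood further from the other WT libraries than they did from each other, with a mean chi-square per gene of 28.4 and 20 against 10.4, and the PN pairs lay at 3.72 to 5.77. In bulk RNA, fewer cells of a kind and less RNA per cell cannot be told apart. Of the 7 markers set for esophageal epithelium, 4 were listed: Krt13 and Krt4, keratins of the mature layers, fell by 2.91 and 2.18 on the log2 scale, while Krt15 and Trp63, which mark basal cells, rose by 1.29 and 0.53. No fibroblast, muscle, glia, ciliated or columnar marker was listed. Of 6 leukocyte markers only Cd68, also a lysosomal protein, was listed, at 107 ± 12.8 CPM in WT and 25.2 ± 1.61 in PN (SD, n = 3); of 5 endothelial markers only Esam was, at 9.24 ± 3.19 and 5.14 ± 0.741 CPM. The part of other cells in the results was not tested.

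Trp53 transcripts (chromosome 11, 69580359 to 69591873, GRCm38) were nearly lost. They stood at 118, 121 and 121 CPM in the 3 WT libraries and at 2.31, 3.24 and 2.27 in PN, a WT level 46.0-fold higher (adjusted p = 2.49e-12). Notch1 transcripts (chromosome 2, 26457903 to 26516663) were lowered but abundant, at 213, 277 and 243 CPM in WT and 141, 154 and 149 in PN. The log2 fold change was -0.72 ± 0.089 (SE; adjusted p = 2.9e-05). A gene-level count does not show whether the remaining Notch1 RNA encodes a working receptor. PCN organoids had less of it, at 66.5 to 76.9 CPM, and PN exceeded PCN by 1.05 on the log2 scale (adjusted p = 9.3e-15).

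Of 50 p53 target genes on a hand-written list, 31 were listed, of which 25 fell and 6 rose, with a median log2 fold change of -0.84 against -0.26 over all tested genes. Cdkn1a, the inhibitor of cyclin-dependent kinases that carries much of p53's arrest signal, stood at 196, 187 and 175 CPM in WT and at 25.9, 28.5 and 23.4 in PN. Its log2 fold change was -2.83 ± 0.089 (adjusted p = 7.98e-11). Mgmt, which removes alkyl groups from guanine in DNA, had the largest fall on the list, from 11.8, 13.2 and 7.55 CPM to 0.297, 0.177 and 0.423. The death-promoting BH3 protein gene Pmaip1 went from 82.3 to 102 CPM in WT down to 12.8 to 15.9 in PN, a log2 fold change of -2.68. Tnfrsf23, a decoy receptor for the death ligand TRAIL, fell by 3.02, and Ddit4l, an inhibitor of mTOR signalling, fell by 4.31. Falls were smaller for Mdm2, the ubiquitin ligase that degrades p53, at -0.61, and for Perp, a desmosomal and death-linked membrane protein, at -0.84. The 6 members that rose were Sertad1, Ckap2, Gtse1, Btg2, Tigar and Sesn1, by 0.25 to 0.78. Ckap2 and Gtse1 act at the mitotic spindle and in G2. A link between their rise and that of the 28 cell cycle regulators described below was not tested. The calls of Apaf1, Bbc3, Eda2r, Fbxw7, Sesn1 and Tigar were lost when certain libraries were left out, with adjusted p up to 0.26.

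Notch pathway genes went in both directions: of 43 on the list 15 were listed, of which 10 fell and 5 rose. Among receptors, Notch3 fell from 313 to 395 CPM in WT to 184 to 193 in PN, a log2 fold change of -0.86 (adjusted p = 3.68e-06). Notch4 went from 10.1, 15.4 and 6.89 CPM to 1.07, 0.825 and 0.264. Rbpj, the DNA-binding partner of all Notch receptors, fell by 1.05 ± 0.093 (SE). Among target genes, Hes1, a repressor switched on by Notch, stood at 186, 184 and 171 CPM in WT and 62.1, 60.1 and 64.4 in PN, a log2 fold change of -1.52 (adjusted p = 2.86e-09). Nrarp, a feedback inhibitor, fell by 1.53 ± 0.226. Every WT library lay above every PN library for these genes, and the groups did not overlap for 98.6% of all tested genes. The genes that rose act before or beside the receptor. Jag2, a ligand, rose from 559 to 693 CPM to 858 to 894, and the sugar-modifying enzymes Lfng, Rfng and Pofut1, which tune ligand binding, rose by 0.74, 0.53 and 0.38. The ubiquitin ligase gene Dtx2 rose by 0.42 and its relative Dtx3 fell by 0.41. Lfng differed in PCN, where it stood at 26.8 to 34.4 CPM against 58.0 to 64.0 in PN (log2 difference 1.01, adjusted p = 5.1e-11). The calls of Dtx2, Dtx3 and Adam17, a protease that cuts Notch receptors, were lost without certain libraries, with adjusted p up to 0.131. At a change of at least 1.5-fold, 6 members fell and 1 rose.

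**Figure D1:**
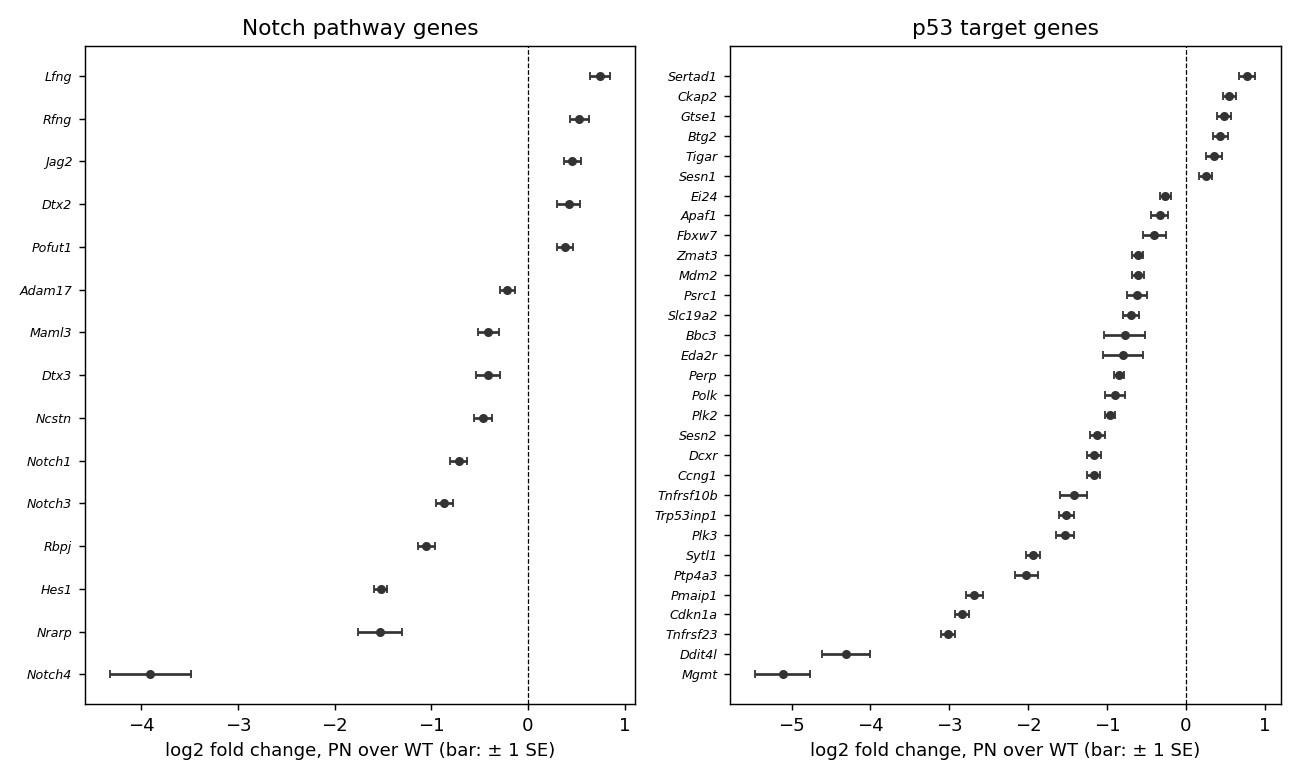
Log2 fold change of each tested Notch pathway gene (left) and p53 target gene (right), PN over WT, on the horizontal axis, with bars of 1 standard error (n = 3 libraries per group). Points left of the dashed line are lower in PN: 10 of 15 in the Notch pathway and 25 of 31 among p53 targets.

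Genes of division moved upward, among them the transcription factors and kinases that run the cycle. Of 45 cell cycle regulators 35 were listed, of which 28 rose and 7 fell, with a median log2 fold change of 0.56. E2f2, an activator of S-phase genes, was at 6.08, 8.23 and 6.89 CPM in WT and 20.6, 19.1 and 20.1 in PN, a log2 fold change of 1.51. Mybl2, which switches on genes of G2 and mitosis, rose by 1.37 ± 0.081 (SE), and E2f8, a repressor of the same family as E2f2, rose by 1.02. The mitotic phosphatase Cdc25c rose by 0.84. Against this direction, the retinoblastoma gene Rb1, which restrains E2F factors, went from 62.6, 73.2 and 88.0 CPM to 37.9, 42.3 and 45.6, and the G1 kinase Cdk6 fell by 0.80.

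DNA repair and the supply of building blocks rose alongside. Of 80 repair genes 48 were listed, and 45 of these rose and 3 fell. Eme1, a subunit of a nuclease that resolves joined DNA, was at 6.41, 5.24 and 5.17 CPM in WT and at 16.0, 17.9 and 17.3 in PN, a log2 fold change of 1.62. Polq, the polymerase of end joining by short homology, rose by 1.32, Ercc6l, a translocase of anaphase bridges, by 1.15, and Fanca, of the interstrand crosslink pathway, by 1.12. The translesion polymerase Polk, also counted among the p53 targets, fell by 0.90, and Rad51d fell by 0.52. Mgmt, which also repairs DNA, is not on this list and is counted only among the p53 targets. Its log2 fold change was -5.11. Of 47 genes of nucleotide and one-carbon metabolism 37 were listed, of which 27 rose and 9 fell. Tyms, which makes thymidylate, was at 30.6 to 33.5 CPM in WT and 69.0 to 71.1 in PN (a log2 rise of 1.13, adjusted p = 1.25e-07). The deoxycytidine kinase Dck rose by 0.97 and the folate enzyme Shmt1 by 0.94. Among those that fell, Tcn2, which carries vitamin B12, did so by 2.73, and Upp1, which cleaves uridine, by 2.44. All 10 listed histone genes rose, of 101 annotated, among them Hist1h4i by 1.07 and H1fx by 0.86. Hist1h2ab and Hist1h3c rose more, by 2.58 (3.19 without WT replicate 2) and 1.39, but stayed under 5 CPM in every WT and PN library. Messages of replication-dependent histones lack a poly(A) tail, so their counts depend on how RNA was selected, which the labels do not state. H2afz, a replacement histone of active promoters, rose from 303 to 329 CPM to 419 to 461.

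The machinery that makes, unwinds and exports messenger RNA was higher by small steps. Of 36 listed splicing factors and hnRNPs 34 rose and 1 fell, with a median log2 fold change of 0.44, and 6 rose by at least 1.5-fold. Prpf3, of the U4/U6 particle, was at 30.8, 28.4 and 22.1 CPM in WT and 44.9, 43.9 and 46.3 in PN (a log2 rise of 0.74, adjusted p = 1.61e-04). Snrpc, Sf3b4 and Prpf31, further spliceosome subunits, rose by 0.71, 0.66 and 0.65. The exception was Srsf5, at -0.31, whose call was lost without PN replicate 3 (adjusted p = 0.0791) and without WT replicate 2 (0.0663). Of 32 listed RNA helicases of the Ddx and Dhx families 29 rose and 2 fell. Ddx39, which works in RNA export, rose from 53.9 to 61.9 CPM to 105 to 115, and Ddx21, of ribosomal RNA synthesis, from 177 to 204 CPM to 323 to 351. The helicases that fell were Dhx32, by 0.43, and Ddx3y, on chromosome Y, by 1.12. All 4 called genes of chromosome Y, Ddx3y among them, were lower in PN. All 17 listed nucleoporins, subunits of the nuclear pore, rose, and 9 did so by at least 1.5-fold. Nup210, a membrane-spanning ring subunit, was at 2.27, 3.20 and 3.98 CPM in WT and 19.4, 19.3 and 21.0 in PN. Its log2 fold change was 2.67 ± 0.175 (SE; adjusted p = 7.49e-08), and PN exceeded PCN by 1.56 (adjusted p = 7.2e-12). Ndc1, another membrane anchor of the pore, rose by 1.23, and Nup35 and Nup85 by 0.94 and 0.80. Of 17 tested subunits of chromatin remodellers 14 rose and 3 fell, but none rose by at least 1.5-fold. Ino80e, Arid4a and Smarce1 rose by 0.57, 0.55 and 0.51, and Arid3a fell by 1.15.

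Promoter sequences are shown for 3 of these rising genes and for Emp1, a falling gene described below, because each holds a motif whose share differed between rising and falling genes, without a test. They run 5′ to 3′ on the gene's strand over the 250 bases before a RefSeq start site on GRCm38.p6. Capitals mark every match to the 6 motifs searched, which are spelled out here and after the sequences. For Ndc1 and Emp1 that site lies inside the gene as the authors placed it, beginning at 107367784 and 135362545. The printed blocks of these genes therefore lie within them by the authors' coordinates. The 4 genes were chosen after their values and matches were seen. Nup210 (chr6:91116827-91117076, minus strand) holds the E2F motif TTCCCGCC. E2f8 (chr7:48881597-48881846, minus strand) holds the reverse complements of TTTGAA, the cell cycle gene homology region (CHR), and of the box CCAAT, and Ndc1 (chr4:107367797-107368046, plus strand) holds TTTGAA itself. Emp1 (chr6:135362681-135362930, plus strand) holds the AP-1 motif TGAGTCA and also 2 copies of TTTGAA.
Nup210: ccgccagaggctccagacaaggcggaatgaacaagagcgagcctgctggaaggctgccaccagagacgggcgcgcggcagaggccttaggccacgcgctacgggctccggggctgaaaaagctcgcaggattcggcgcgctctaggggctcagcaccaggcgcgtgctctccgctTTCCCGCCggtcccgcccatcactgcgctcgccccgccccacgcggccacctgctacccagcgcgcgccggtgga
E2f8: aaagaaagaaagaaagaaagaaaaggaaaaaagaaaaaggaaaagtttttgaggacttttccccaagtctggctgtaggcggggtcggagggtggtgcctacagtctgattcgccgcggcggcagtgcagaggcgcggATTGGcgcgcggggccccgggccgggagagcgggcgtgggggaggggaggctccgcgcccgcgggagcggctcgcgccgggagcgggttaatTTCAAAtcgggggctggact
Ndc1: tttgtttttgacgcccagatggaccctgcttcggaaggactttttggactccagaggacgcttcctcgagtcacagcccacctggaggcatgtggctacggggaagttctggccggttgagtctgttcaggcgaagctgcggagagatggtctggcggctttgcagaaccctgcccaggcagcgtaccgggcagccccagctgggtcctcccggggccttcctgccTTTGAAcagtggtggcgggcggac
Emp1: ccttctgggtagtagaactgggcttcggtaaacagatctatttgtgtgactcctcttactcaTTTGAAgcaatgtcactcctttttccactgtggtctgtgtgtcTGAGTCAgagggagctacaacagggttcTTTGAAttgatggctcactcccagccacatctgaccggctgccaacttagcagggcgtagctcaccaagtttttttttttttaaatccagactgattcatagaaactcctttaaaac

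Over the window from 250 bases before to 50 after the start, on both strands, TTCCCGCC occurred in 5.80% of 2985 promoters of genes called higher, 2.80% of 3109 promoters of genes called lower and 2.19% of all 32851 promoters in the table. TTTGAA occurred in 13.6%, 11.1% and 17.9%, and the box CCAAT in 41.3%, 35.8% and 37.4%. TGAGTCA occurred in 3.25%, 5.79% and 5.20%. The Rbpj motif stood at 22.0%, 24.0% and 25.6% for TGGGAA and 1.24%, 1.19% and 0.734% for CGTGGGAA, of which the longer contains the shorter. These promoters were matched by gene for 2420 of 3022 rising and 2367 of 3226 falling genes, and their mean GC content was 61.6% and 60.5% against 53.8% over all promoters. A match describes the sequence and shows no binding.

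Machines that make and break down protein did not move together. Of 55 listed cytosolic ribosomal proteins 53 fell and 1 rose, with a median log2 fold change of -0.54. The fall was shallow, with 22 past 1.5-fold. Rpl15 was at 1161, 963 and 850 CPM in WT and 511, 486 and 443 in PN (a log2 change of -1.04, adjusted p = 7.94e-06), and Rps24 fell by 0.88. Rpl22l1 fell by 1.30 ± 0.314 (SE), and Rpl37 by 0.82, the latter without a call when WT replicate 3 was left out (adjusted p = 0.0712). The only riser, Rpl7l1, is a relative of a ribosomal protein that acts in ribosome assembly. The elongation factors Eef1a1 and Eef2, which bring transfer RNA to the ribosome and move it along, fell with them, by 0.53 and 0.64. Ribosomal protein genes have many pseudogene copies, so counts depend on how shared reads were treated, which is not given in the sources used here.

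Of 39 listed mitochondrial ribosomal proteins, by contrast, 32 rose and 4 fell, and 9 rose by at least 1.5-fold. Mrps11 was at 11.6, 7.76 and 7.35 CPM in WT and 19.3, 16.3 and 18.9 in PN, a log2 fold change of 1.04. Mrpl51, Mrpl16 and Mrpl20 rose by 0.79, 0.76 and 0.69. In a fit of all 9 libraries, which tested 23 of the 39, all 23 passed, 19 as higher and 4 as lower. Of 32 listed genes with proteasome symbols, subunits of the particle that degrades ubiquitin-tagged protein, 25 rose and 5 fell. Psmc4, an ATPase of the cap, rose from 88.1 to 97.6 CPM to 142 to 152 (log2 fold change 0.67, adjusted p = 6.32e-06). Psmb9, a catalytic subunit of the immunoproteasome, and the assembly chaperone Psmd9 each rose by 0.72, and Psmc3ip, which rose by 1.19, is a recombination factor and no proteasome subunit. Each of these machineries, apart from the histone and remodeller genes, is drawn gene by gene in the plot of 6 families.

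**Figure D2:**
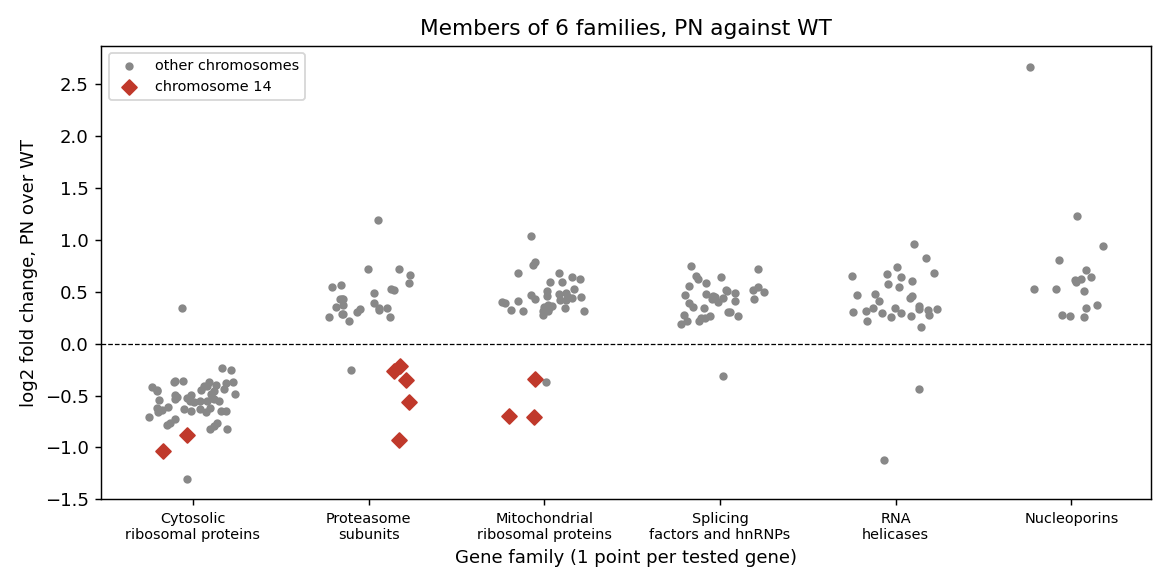
Log2 fold change, PN over WT (vertical axis), of every tested member of 6 gene families, 1 point per gene, with genes of chromosome 14 as red diamonds and horizontal scatter only for visibility. Cytosolic ribosomal proteins lie below the dashed line with 1 exception called higher, the other families lie mostly above it, and 4 of the 5 proteasome genes and 3 of the 4 mitochondrial ribosomal genes called lower are on chromosome 14.

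Several of the exceptions in rising families share a chromosome. Psme1, which opens the proteasome gate, was at 54.7, 53.8 and 50.7 CPM in WT and 29.6, 25.6 and 28.0 in PN, a log2 fold change of -0.93. It lies on chromosome 14 with Psmb5, Psmc6 and Psmd6, which makes 4 of the 5 falling proteasome genes, and the fifth, Psmd8, is on chromosome 7. Psme2, also on chromosome 14, did not pass, at -0.56 (adjusted p = 0.0579). The falling mitochondrial ribosomal genes Mrpl52 (-0.71), Mrps16 (-0.70) and Mrpl57 (-0.34) lie there too, as do Rb1 and the remodeller Chd8 (-0.27). Calls of the smaller falls were lost with 1 library left out: 2 of the 5 falling proteasome genes passed without PN replicate 2 and 3 without PN replicate 3. Mrpl57 and Chd8 each lost their call when any of 4 libraries was left out (adjusted p up to 0.206). Their log2 fold changes in those fits were -0.23 to -0.38 and -0.2 to -0.29. Calls of rises were lost as well. With 1 library left out, as few as 19 proteasome genes (25 in the main fit) and 23 mitochondrial ribosomal genes (32) were called higher. For splicing factors and RNA helicases the lowest counts were 25 (34) and 22 (29). Across chromosome 14, 259 of 276 called genes fell (93.8%), with a median log2 fold change of -0.68 over 277 tested genes and a middle range of -1.09 to -0.48. On all other chromosomes together 49.7% of the called genes fell. Chromosome 14 was singled out after its values were seen. The copy number of the chromosome was not measured and its part in these results was not tested. Left out, chromosome 14 changed the proteasome count to 25 higher and 1 lower and the mitochondrial ribosomal count to 32 and 1.

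**Figure D3:**
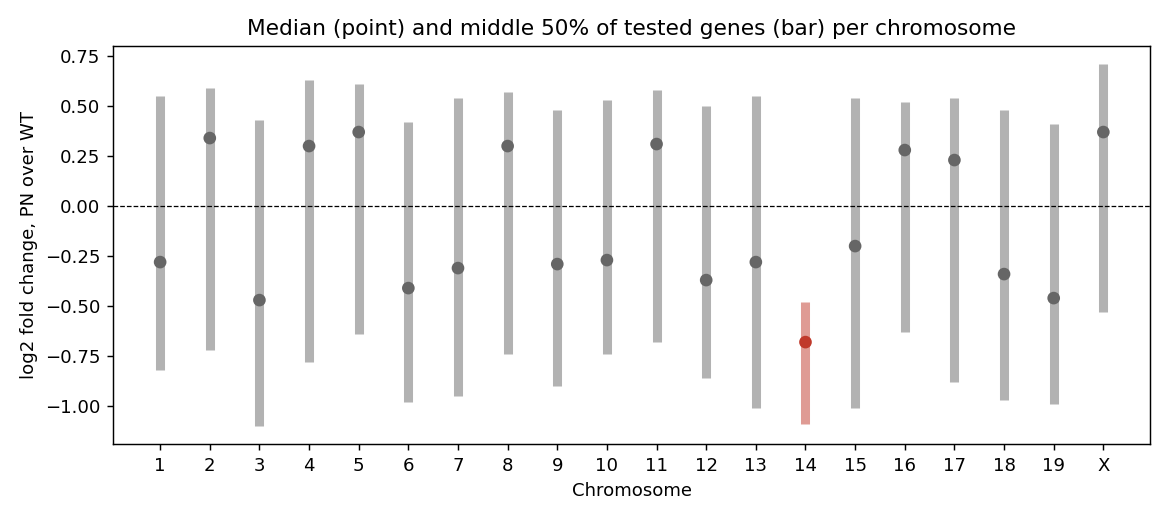
Median (point) and middle 50% (bar) of the log2 fold change, PN over WT (vertical axis), over tested genes of each chromosome (horizontal axis; chromosome Y, the mitochondrial genome and unplaced pieces are not drawn). Chromosome 14, in red, has a median of -0.68 and its whole bar lies below 0, while the bars of all the other chromosomes drawn span 0.

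Genes of the mature epithelial surface fell steeply. Of 20 listed serine proteases of the Klk, Prss and Tmprss types 19 fell and 1 rose, with a median log2 fold change of -1.75, and 17 of them fell by over 2-fold. All 6 listed Tmprss11 genes, membrane proteases that lie together on chromosome 5 (86302217 to 86745815), fell by 1.71 to 4.74. Tmprss11b was at 577, 651 and 697 CPM in WT and at 40.9, 42.8 and 42.3 in PN (fold change -3.92 on the log2 scale, adjusted p = 3.09e-12). All 7 listed kallikreins (chromosome 7, 43690418 to 43803826), secreted proteases that help shed surface cells, fell by 0.80 to 3.10. Close relatives within such clusters can share reads. The exception, Prss12, rose from 7.82 to 10.02 CPM to 16.1 to 19.3.

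All 9 listed S100 proteins and all 8 listed annexins, families of calcium-binding proteins, fell. S100a7a, the mouse relative of the skin protein psoriasin, was at 149, 152 and 123 CPM in WT and 5.46, 6.66 and 5.34 in PN, a log2 fold change of -4.59. S100a1 and S100a16 fell by 1.63 and 1.30. Anxa1, a membrane-binding protein that damps inflammation, fell from 2564, 2662 and 2947 CPM to 338, 326 and 362 (log2 fold change -2.98, adjusted p = 1.62e-11). Anxa8 and Anxa7 lie on chromosome 14 and fell by 3.88 and 1.07, and the other 6 annexins fell from other chromosomes. The 7 antimicrobial and mucosal secretion genes that were tested, of 10 listed, all fell, among them lactoferrin (Ltf), which binds iron, at 122 to 153 CPM in WT and 9.37 to 12.5 in PN. The defensin Defb1 fell by 2.65, the mucin Muc4 by 2.59 and the protease inhibitor Slpi by 1.27. The filter on low counts let 2 rising genes into this list when any WT library was left out. All 7 tested Ly6 and Lypd genes, which encode small lipid-anchored surface proteins, fell. Ly6d was at 369, 368 and 224 CPM in WT and 29.0, 26.4 and 29.6 in PN, and Lypd3 fell by 0.97. Leaving out PN replicate 2 brought 1 rising member, Ly6c2, past the filter on low counts.

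Enzymes that make and break down retinoids and lipids also fell. Of 12 listed cytochromes P450, which oxidise lipids and foreign compounds, 11 fell and 1 rose, with a median log2 fold change of -2.45. Cyp3a13 fell from 88.8, 102 and 94.2 CPM to 3.20, 2.06 and 2.22, and Cyp4f39, which acts on very long fatty acids of the skin barrier, fell by 3.64. Of 13 listed aldehyde dehydrogenases 10 fell and 3 rose, and 12 of 14 listed genes of retinoid handling fell; the lists share members. Aldh1a3, which makes retinoic acid, was at 76.8, 83.3 and 90.9 CPM in WT and 11.9, 11.3 and 10.7 in PN (a log2 change of -2.88, adjusted p = 1.47e-10). Its relative Aldh1a1 fell by 4.74, the retinol carrier Rbp2 by 4.60 and the retinol dehydrogenase Dhrs9 by 4.26. The members that rose were Cyp26b1, which breaks down retinoic acid, from 89.8 to 105 CPM to 140 to 143, and the receptor Rxra, by 0.38.

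Among lipid enzymes, 9 of 10 listed phospholipases A2 and lipases fell. Liph, which releases lysophosphatidic acid, was at 27.2, 29.0 and 31.3 CPM in WT and 1.66, 2.00 and 1.96 in PN, and the lysosomal lipase Lipa fell by 2.44. The exception was Pnpla1, an enzyme of skin barrier lipids, which rose by 2.98 (3.90 without WT replicate 1) at under 2 CPM. Of 14 listed acyl-CoA synthetases, elongases and desaturases 12 fell, led by Acsbg1 at -3.04 and Acss2, which makes acetyl-CoA from acetate, at -1.86, while the desaturase relative Fads6 rose by 1.68. Of 21 listed enzymes and transporters of prostaglandins and leukotrienes 16 fell and 5 rose. The skin lipoxygenase Alox12b fell by 3.01, and the epoxide hydrolase Ephx3 by 2.62. The pair of cyclooxygenases, which start prostaglandin synthesis, went opposite ways: Ptgs1 fell from 28.4 to 34.3 CPM to 11.8 to 15.0, and the inducible Ptgs2 rose from 6.74 to 8.55 CPM to 18.8 to 19.1. Hpgd, which inactivates prostaglandins, rose by 4.36.

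Sugar-adding and degrading enzymes fell more often than they rose. Of 25 tested galactosyl-, GalNAc- and sialyltransferases 19 fell and 6 rose. Fut2, which makes the secretor blood group sugar on mucosa, fell from 12.8, 17.01 and 11.99 CPM to 0.653, 0.883 and 0.582. St6gal1, which caps sugars with sialic acid, rose from 2.67 to 3.68 CPM to 8.83 to 11.5. Of 25 listed lysosome and autophagy genes 20 fell and 5 rose, and 3 of the rises passed without PN replicate 1 or without PN replicate 3. Atg9b, a membrane protein of early autophagosomes, had the largest fall, at 182, 195 and 151 CPM in WT and 8.19, 10.01 and 7.51 in PN (fold change -4.35 on the log2 scale, adjusted p = 5.68e-11). The proteases Ctsh and Ctsl fell by 1.55 and 1.00 and the hexosaminidase Hexa by 1.31, and the galactosidase Gla rose by 0.79.

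Adhesion, guidance and signalling families were lower with more exceptions. Of 12 called genes with integrin symbols 9 fell and 3 rose. Itgb5 was at 38.1, 41.9 and 42.3 CPM in WT and 10.7, 9.48 and 9.52 in PN, and Itga6, which anchors basal cells to the basement membrane, fell by 0.53. Itgb1bp1, which rose by 0.76, binds integrins and is not one. Itgb3bp, which rose by 0.71, is likewise named as a binding protein and is not an integrin. Its call was lost without PN replicate 2 or 3 or WT replicate 1 or 2 (adjusted p up to 0.187). The collagen receptor subunit Itga2 rose by 2.33, at under 5 CPM in every WT and PN library. Of 12 listed tetraspanins, organisers of membrane patches, 9 fell and 3 rose, with Tspan17 at -1.38 and Tspan12 and Tspan13 each at 1.04. All 8 listed ADAM and ADAMTS proteases fell, and 4 of them by at least 1.5-fold. Adam28 (chromosome 14) fell from 103, 117 and 124 CPM to 2.31, 3.12 and 3.12, and Adamtsl4, a relative without protease activity, by 4.32. Among Eph receptors and ephrins, contact signals between cells, 6 of 8 tested genes fell. Epha2 went from 565 to 609 CPM to 322 to 324, and Epha7 rose from 34.1 to 38.7 to 58.0 to 65.4 CPM. Of 12 called semaphorins, plexins and neuropilins 9 fell, among them Sema4d by 1.44 and Nrp2 by 0.97, and 3 rose. Sema3a, a secreted repellent of growing axons, was at 0.0668, 0.136 and 0.0663 CPM in WT and 3.50, 3.71 and 4.76 in PN, a fitted log2 fold change of 5.38 ± 0.448 (SE; adjusted p = 7.51e-07) that rests on few WT counts. Sema6a, also under 5 CPM, rose by 2.69 (3.78 without WT replicate 1) and Plxna2 by 0.31. Plxnd1, at -0.84, lost its call without PN replicate 2 or 3 or WT replicate 2 (adjusted p up to 0.0843).

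Of 11 listed dual specificity phosphatases, most of which switch off MAP kinases, 10 fell and 1 rose. Dusp5, which acts on nuclear ERK, stood at 101, 102 and 94.4 CPM in WT and at 4.98, 7.48 and 6.08 in PN (a log2 change of -3.99, adjusted p = 5.68e-11). Dusp6, which acts on ERK in the cytoplasm, was the exception and rose from 257 to 276 CPM to 324 to 341. Of 11 listed interleukin receptors 9 fell and 2 rose. Il4ra fell from 98.9 to 109 CPM to 45.4 to 49.1, Il1rl2, the receptor of the interleukin 36 cytokines, fell by 1.66, and Il20rb and Il17ra rose by 0.46 and 0.41.

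**Figure D4:**
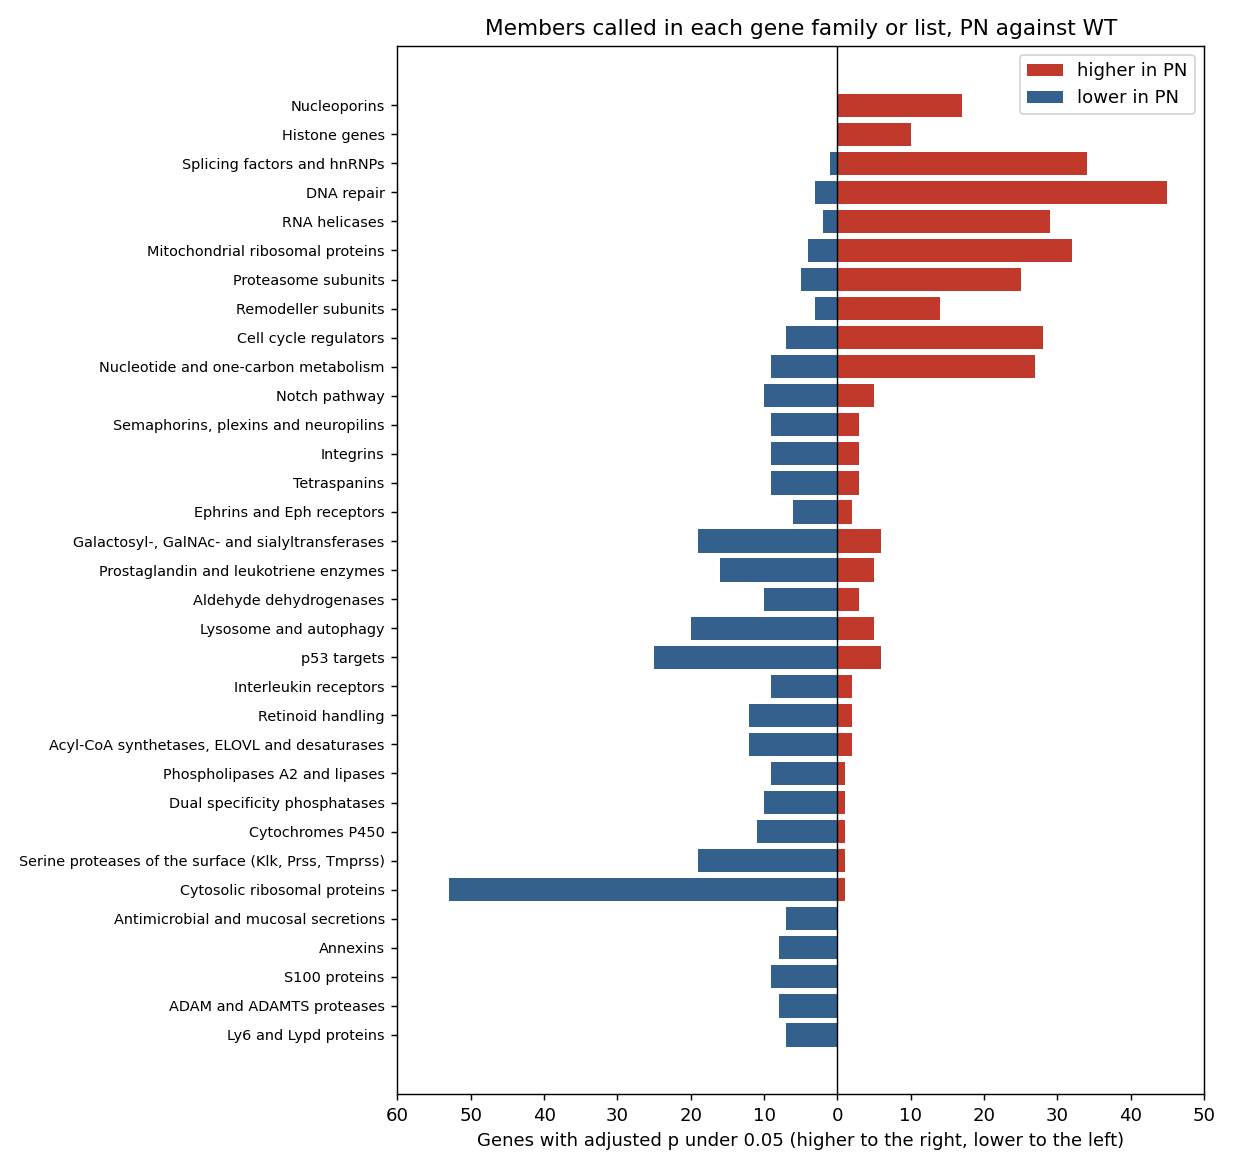
Number of listed members called higher (bars to the right) and lower (bars to the left) in PN at an adjusted p under 0.05, for the 33 gene families and lists described, sorted by the share called higher. The 10 sets at the top lean higher and the 23 below lean lower, of 73 sets with at least 8 listed members; sets share some genes.

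Other families split. Of 110 tested solute carriers 63 rose and 47 fell, and of 93 called Zfp zinc finger genes 60 rose and 33 fell. The 12 listed Hox genes, which set position along the body, divided 6 and 6. By cluster, all 5 Hoxa genes fell, by 0.59 to 2.00, and all 3 Hoxb genes rose, by 0.61 to 1.41, as did 3 of 4 Hoxc genes, a division seen after the values were known. Hoxb3 went from 3.76 ± 0.640 to 9.92 ± 0.713 CPM and Hoxa5 from 19.4 ± 1.14 to 10.5 ± 0.439 (SD, n = 3). The call of Hoxa6 was lost without PN replicate 1 or 3 (adjusted p up to 0.0591). Of 30 listed respiratory chain genes 22 rose and 8 fell.

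The largest changes of single genes came partly from outside these families. They were ranked among genes with at least 5 CPM in WT or PN and no overlap between the groups, without a hand-written list of genes that holds, among others, Wif1, Il33 and Krt13. The largest rise was that of Krt79, a keratin of hair follicle and sebaceous ducts, from 0.267, 0.136 and 0.663 CPM in WT to 10.1, 7.36 and 8.14 in PN. Its log2 fold change was 4.56 ± 0.354 (SE; adjusted p = 3.83e-07), and 5.36 without WT replicate 3, the WT library with the highest value. Hpgd followed, at 6.01, 5.65 and 9.41 CPM in WT and 129, 137 and 164 in PN, and it exceeded its level in PCN by 1.87 (adjusted p = 2.1e-09). Sat2, a relative of the polyamine acetyltransferases, rose by 4.32 (5.15 without WT replicate 3), and the chemokine Cxcl1, which draws neutrophils, by 3.24 (3.88 without it). Sat2 lies on chromosome 11 (69622024 to 69623870), close to Trp53, and a link between its rise and that place was not tested. Cadps, which primes secretory vesicles, rose from 0.401 to 0.994 CPM to 11.9 to 14.6 although it lies on chromosome 14. Smoc2, a secreted matrix-associated protein, was at 1.94, 1.23 and 1.86 CPM in WT and 26.9, 24.2 and 28.0 in PN, and was higher still in PCN, at 90.5 to 96.9 (PN minus PCN -1.83 on the log2 scale, adjusted p = 5.87e-19). Enpp2, the enzyme autotaxin that makes lysophosphatidic acid, rose by 3.02 and was also below its PCN level (log2 difference -1.49). The remaining large rises were Foxf2, Rnf150, Htr5b, Nxpe4 and Dlx3, by 2.95 to 3.73.

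Among falls, Arg1, which turns arginine into ornithine and urea, stood at 1637, 1593 and 1596 CPM in WT and 31.6, 28.4 and 38.3 in PN. Its log2 fold change was -5.60 ± 0.110 (SE; adjusted p = 1.72e-12), and PN minus PCN was -0.80 ± 0.085. Psca, a lipid-anchored surface protein of mucosa, fell from 1416, 1277 and 788 to 21.2, 22.0 and 24.1 CPM. Kbtbd11, a BTB and kelch domain protein, fell by 6.09 and Aldh1a7 by 5.52. Pbp2, a phosphatidylethanolamine-binding protein, went from 14.6 to 17.6 CPM to 0.0593 to 0.236. Cyp4f17 fell by 5.69 and was lower in PN than in PCN, at 0.295 to 0.415 against 3.33 to 3.96 CPM (log2 difference -3.34, adjusted p = 1.19e-09). Pdzrn3, a ubiquitin ligase with PDZ domains, had a log2 fold change of -5.83 (-6.45 without PN replicate 2) and was also below PCN (log2 difference -2.99). The protocadherin Pcdhgb6, an adhesion protein of a cluster with shared exons, had 225 counts over the WT libraries and 3 over the PN libraries, all of these in PN replicate 2. The ratio of its normalized totals was 88.4 (exact 95% interval 29.9 to 432, counting error only).

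**Figure D5:**
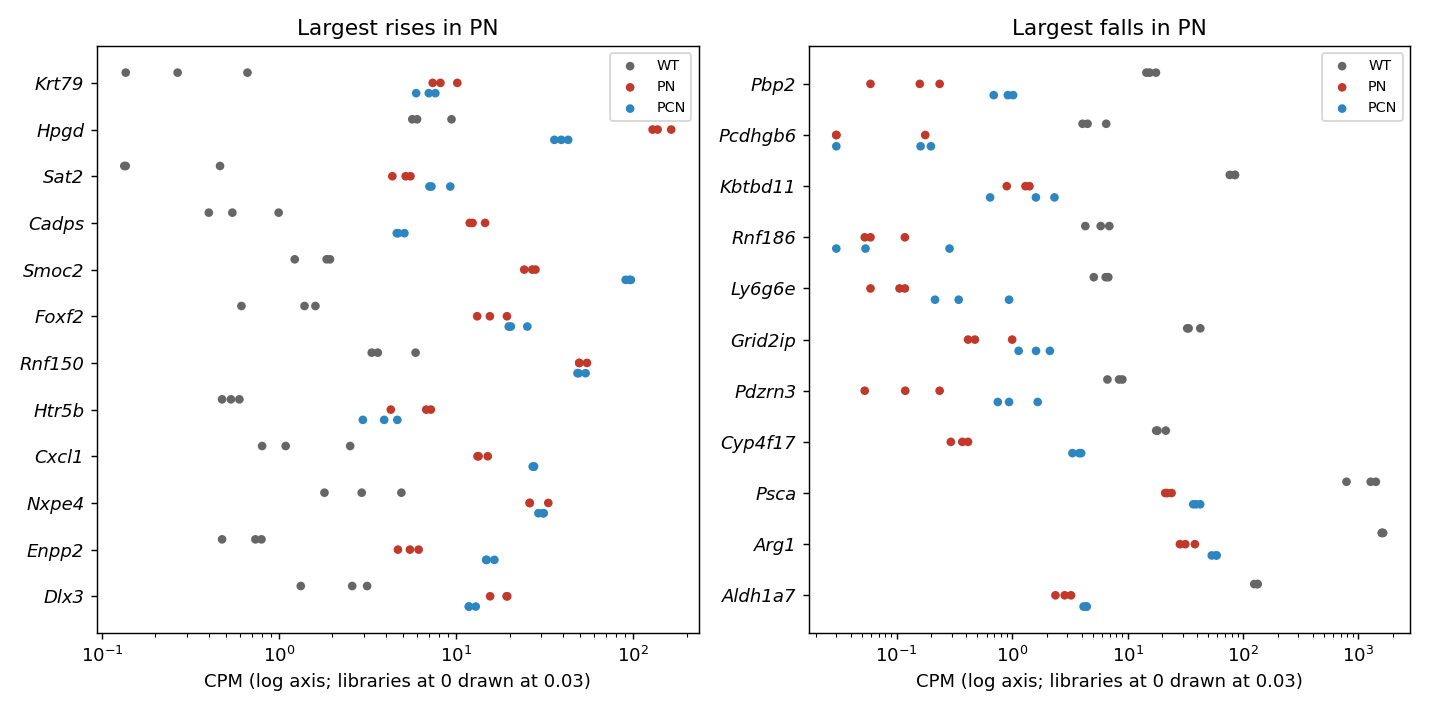
CPM (horizontal, log axis) of the 12 genes with the largest rises (left) and 11 of the 12 with the largest falls (right), 1 point per library, for WT (grey), PN (red) and PCN (blue, for comparison), with libraries at 0 drawn at 0.03. For each gene the 3 WT points do not overlap the 3 PN points. The PCN points lie above the PN points for several genes, among them Smoc2, Enpp2, Cxcl1, Arg1 and Cyp4f17, and below them for Hpgd, Cadps and Dlx3.

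On the CPM scale, where long or abundant transcripts weigh the most, the largest fall in that ranking was that of Gsto1, a glutathione-dependent reductase, from 9856, 9179 and 8757 to 1007, 973 and 992. Emp1, a membrane protein of stratified epithelium whose promoter is printed above, fell from 3872, 3989 and 3498 to 229, 211 and 217 CPM (log2 fold change -4.10, adjusted p = 1.72e-12). Tpt1, a growth-linked calcium-binding protein on chromosome 14, fell by 1.17. Among rises, the mitochondrially encoded mt-Cytb and mt-Nd1, subunits of the respiratory chain, went from 823 to 1028 and from 1021 to 1148 CPM to 1553 to 2020 and 1542 to 1930. Krt17, a keratin of activated epithelium, rose from 1815 to 1979 CPM to 2636 to 2740 and exceeded PCN by 0.48 (adjusted p = 1.89e-10). Igfbp2, which binds insulin-like growth factors, was at 97.1, 104 and 71.8 CPM in WT and 499, 492 and 510 in PN, a log2 fold change of 2.47. Ptma and Ncl, abundant nuclear proteins of dividing cells, rose by 0.90 and 0.66, and Lgals7, a galectin of stratified epithelium, by 0.68. Hspa8, a constitutive chaperone, rose by 0.33 and lost its call without PN replicate 3 or WT replicate 2 (adjusted p up to 0.0679).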

How the data were processed

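RNA of 3 WT and 3 PN organoid libraries was compared, with 3 PCN libraries for reference. Per the submitters' processing notes, the tools were CASAVA and DESeq and the build GRCm38 (mm10); no version is named. Aligner, counter and strandedness are not stated, so reads of antisense partners cannot be told apart. The counts per gene are the authors', per the file headers, as are the normalized signal (count over 1 size factor per library), the FPKM, the log2 fold change and the p-value with its adjusted form. The deposited tables hold only genes the authors called.

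From the counts, FPKM and gene lengths a scaled total per library was recovered. It is not a whole number, so it is not a plain sum of reads and true depth is unknown. Listed genes held 9661485 to 11099337 counts per library. The number of genes adjusted over, 17165, follows from 93.1% of the adjusted p-values. Counts were fitted in R 4.3.3 with edgeR 4.0.16 (robust quasi-likelihood, filterByExpr, group only) with the authors' size factors as offsets. The biological coefficient of variation was 0.087. The SE was worked back as the absolute log2 difference divided by the root of F. On simulated data of 6295 genes for PN against WT, 45 of 50 genes changed by 1.5-fold were recovered, and 50 of 50 changed by 8-fold, with 10 false calls. The simulation changed a small part of the genes, gave all genes the same dispersion and adjusted over 6295 genes, not 17165. Its rates therefore do not carry over to the fit of the data. PN against PCN was fitted likewise on its own table. Gene names and coordinates are those of the tables, and 6537 of the 6544 identifiers are in GENCODE M21.

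The genes, 65 symbol families and 23 function lists were chosen with earlier results of these data known. A family was described where at least 8 members were listed and 75% of those called went 1 way, or where it belongs to the Notch or p53 pathway. Named genes were protein-coding, passed at 0.05, reached at least 5 CPM on average in WT or PN, had WT and PN libraries that did not overlap, were not predicted genes and were not on a list of genes left out: the 12 largest rises and falls in log2 fold change, the 8 largest in CPM, up to 4 per family in its prevailing direction and 2 in the other. The Notch and p53 genes were named whatever their level or overlap. Hist1h2ab, Hist1h3c, Sema3a, Sema6a, Itga2, Itgb3bp, Pnpla1, Ly6c2, Ddx3y, Anxa7, Mrpl57, Chd8, Psmc6, Psmd6, Psmd8, Psme2, marker genes, Hox genes and the printed promoters were named outside that rule, after their values were seen. Alternatives were scaled totals, TMM, DESeq2 1.42.0, other filters, adjustment over the listed genes, a replicate block, all 9 libraries and each library left out. Some items that the naming rule selects are not reported here.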

Additional observations from a re-analysis of the deposited data

How the results depend on the processing

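All 3 counts of genes passing, and the number of described families with at least 75% of calls in 1 direction (32 of 33), stayed within 1.5 times their values under the alternatives tried. Called genes numbered 6240 with scaled library totals, 6033 with TMM on the listed genes, 6495 without a filter, 6260 with at least 10 counts in 3 libraries, 6293 adjusted over the listed genes alone, 6537 with DESeq2 and 5633 with all 9 libraries. The scaled totals are nearly proportional to the size factors of the main fit, so the first of these could hardly differ from it. TMM gave 3042 higher and 2991 lower, against 3022 and 3226, so which direction held more genes changed. Leaving out each library in turn gave 5578 to 6231 called genes, 2587 to 3014 higher and 2961 to 3217 lower, and 29 to 32 such families. The families numbered 30 without chromosome 14, an alternative chosen after seeing the data like leaving out libraries for this count, and 28 at a change of at least 1.5-fold. At that size the remodeller subunits had 0 higher calls and 1 lower, which turned their direction. Of 3353 results for 240 named genes under the alternatives, 3303 kept their call and 50, over 16 genes, lost it, and none changed sign. Apart from the Notch and p53 genes, these genes were chosen for a call and for groups that do not overlap. Refits of the same counts could therefore hardly turn their sign, and this tally is no independent measure of stability. Whether the numbers in the labels pair the libraries was not settled, and the main fit did not pair them. Deviations of libraries with the same number correlated weakly, at 0.18, 0.070 and 0.22, but each library correlated best with its own number. The fit with the replicate block called 6277 genes, 3041 higher and 3236 lower. Genes absent from the table have no value here, and counts of a few reads per library, as for Pcdhgb6, limit the precision of the largest falls.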

Other observations

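Transcripts that do not encode protein leaned lower in PN. Of 68 called lincRNA genes 54 were lower and 14 higher (79.4% lower), and of 51 genes annotated as antisense 44 were lower and 7 higher (86.3%), while 50.4% of 5918 called protein-coding genes were lower. Strand use in counting is not stated, so reads of an antisense gene and its partner cannot be told apart. Among transcription factor families as the deposited table names them, 13 of 14 called MYB-type genes were higher, 6 of 7 E2F genes were higher, and 14 of 19 bZIP genes were lower. All 6 listed cathepsins fell, as did all 3 listed mucins. These counts were looked at after the values were known and were not tested.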
